A study of Mus musculus with 18 samples.

Results

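H3K27me3, a repressive histone mark, was followed at 8 genes of Sonic hedgehog signalling, the floor plate and the ventral neural tube (Shh, Foxa2, Foxa1, Ptch1, Gli1, Sim1, Olig2 and Olig1), named from the pathway among 49997 annotated mouse genes. A gene counted as marked in a library where at least 1 base of a peak lay within its mm10 span extended by 1 kb at each end, the gene window. All 8 were found, and all 8 were marked in at least 6 of 12 libraries. In 7 of the 8 genes the mark was called in at least 10 libraries, which held for 5.93% of the 21900 protein-coding genes. Shh, Foxa1 and Olig2 (3 of the 8) were marked in all 12, as were 2.18% of protein-coding genes. Without the extension, Foxa1 and Olig2 were each marked in 11 libraries and Gli1 in 7. Ptch1 was marked least often, in 6 libraries.

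The libraries were made by CUT&Tag, in which an antibody directs a transposase to cut DNA beside the mark, from headfolds of mouse embryos at embryonic day 8.5. Each reaction held 1 headfold, a mixture of cell types. All embryos were Gulo-/-, so they lacked the enzyme that completes vitamin C synthesis, and no Gulo-proficient group was compared. The groups were B6 without vitamin C, B6 with vitamin C, 129 without vitamin C and 129 with vitamin C, with 3 libraries each. Vitamin C was given at 3.3 g/l in the drinking water, and the groups without it received none. Each group held 2 female embryos and 1 male. The 3 embryos of B6 with vitamin C came from 1 timed pregnancy, whereas each of the other groups came from 3, so pregnancy and vitamin C cannot be told apart in B6. B6 libraries are numbered 1, 2 and 4, and 129 libraries 1, 2 and 3; the numbers follow accession order and pair no libraries.

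Shh is secreted by the notochord and then by the floor plate, the ventral midline of the neural tube, and patterns the tube by its graded concentration. It binds Ptch1, which relieves Smo from repression and turns Gli proteins into activators of targets that include Ptch1 and Gli1 themselves. H3K27me3 is written by Polycomb repressive complex 2 and often lies in broad domains over genes of developmental regulators in cells that do not use them. In a bulk headfold, fewer cells carrying the mark and less mark per cell cannot be told apart.

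Start regions of the marked genes are shown because the mark covered some of them and did not reach the one available for Ptch1. RefSeq sequence of GRCm38.p6, the assembly behind mm10, was matched for 5 of the 8 genes (Foxa2, Foxa1, Ptch1, Sim1 and Olig2) and not for Shh, Gli1 and Olig1. Each run below holds the 250 bases before an annotated start, 5′ to 3′ on the gene's strand, with CpG pairs in capitals. Foxa2 has 3 annotated starts, of which the outermost is shown. The starts available for Foxa1, Ptch1 and Sim1 lie inside the gene's span and not at its outer end. The Ptch1 span begins at chr13:63573460 on the minus strand, the end at which its peaks lay.
Foxa2, chr2:148046970-148047219, minus strand: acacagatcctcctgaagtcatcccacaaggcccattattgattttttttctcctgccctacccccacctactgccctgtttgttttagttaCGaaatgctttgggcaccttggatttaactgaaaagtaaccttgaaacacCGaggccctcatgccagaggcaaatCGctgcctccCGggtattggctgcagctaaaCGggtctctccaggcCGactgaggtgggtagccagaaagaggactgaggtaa
Foxa1, chr12:57546112-57546361, minus strand: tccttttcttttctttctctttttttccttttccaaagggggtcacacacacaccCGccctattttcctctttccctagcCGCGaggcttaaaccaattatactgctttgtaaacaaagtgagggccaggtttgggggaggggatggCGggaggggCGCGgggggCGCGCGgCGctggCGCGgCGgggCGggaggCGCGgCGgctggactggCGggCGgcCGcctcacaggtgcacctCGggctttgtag
Ptch1, chr13:63565736-63565985, minus strand: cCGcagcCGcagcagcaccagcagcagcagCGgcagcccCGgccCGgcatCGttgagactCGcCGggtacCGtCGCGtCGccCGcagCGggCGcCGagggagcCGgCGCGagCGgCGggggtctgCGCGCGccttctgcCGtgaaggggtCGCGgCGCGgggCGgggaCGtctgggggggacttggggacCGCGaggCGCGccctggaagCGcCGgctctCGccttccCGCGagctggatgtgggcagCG
Sim1, chr10:50895401-50895650, plus strand: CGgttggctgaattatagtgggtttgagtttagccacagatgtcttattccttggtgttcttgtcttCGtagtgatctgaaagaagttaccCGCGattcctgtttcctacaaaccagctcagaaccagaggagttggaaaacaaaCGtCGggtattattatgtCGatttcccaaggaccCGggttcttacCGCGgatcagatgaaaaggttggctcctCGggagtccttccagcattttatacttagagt
Olig2, chr16:91225300-91225549, plus strand: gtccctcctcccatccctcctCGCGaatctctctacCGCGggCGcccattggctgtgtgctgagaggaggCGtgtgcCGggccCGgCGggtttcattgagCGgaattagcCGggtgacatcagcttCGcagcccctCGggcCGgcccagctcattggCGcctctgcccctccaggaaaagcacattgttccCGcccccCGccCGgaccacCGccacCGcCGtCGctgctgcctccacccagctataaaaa

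The outermost Foxa2 region lay wholly under a peak in 11 libraries, the Olig2 region in 10, the Sim1 region in 9 and the Foxa1 region in 8. The Ptch1 region was covered in none of the 12. It was also the richest in CpG, with 41 pairs, more than 98.9% of the 32851 regions in the table, whose median was 6. Olig2 had 22 pairs (percentile 85.2), Foxa1 21 (percentile 83.7) and Sim1 11 (percentile 64.4). The outermost Foxa2 region had 6, at the table's median, while the Foxa2 regions further inside the gene had 20 and 13 and were covered in 11 and 10 libraries. Each region was searched on both strands for a Gli site (GACCACCCA), found in 0.225% of all regions and in none of the members' regions. A forkhead site (TGTTTAC), found in 3.17% of all regions, occurred in that of Foxa1. The TATA box (TATAAA), found in 12.4% of all regions, occurred in 3 members' regions, 1 each for Foxa2, Sim1 and Olig2. Only the Olig2 match read TATAAA on the gene's strand. The Foxa2 and Sim1 matches read TTTATA, its reverse, and the Foxa2 match lay in an inner region not printed here. These are matches of letters in these windows, not binding sites.

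The lists differed as a whole. They held between 748 and 4726 peaks, which together covered between 3.58 and 31.7 Mb. The median peak width was 1.32 to 4.89 kb in B6 libraries and 4.10 to 8.45 kb in 129 libraries. B6 without vitamin C replicate 1 (1.32 kb) and B6 with vitamin C replicate 2 (1.41 kb) stood apart by short peaks, and the number of reads behind each list is unknown. A histone mark does not measure expression, so the headfold label could be set only beside marking. Of 6 genes of the early anterior neural plate, Hesx1 was marked in no library, Sox2 in 2 and Otx2 in 3, while Sox1 was marked in 10, Six3 in 11 and Rax in 12. Of 10 marker genes of mesoderm, heart, gut and blood, 6 were marked in at least 10 libraries and 2 (Tbx6 and Gata1) in none.

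**Figure D1:**
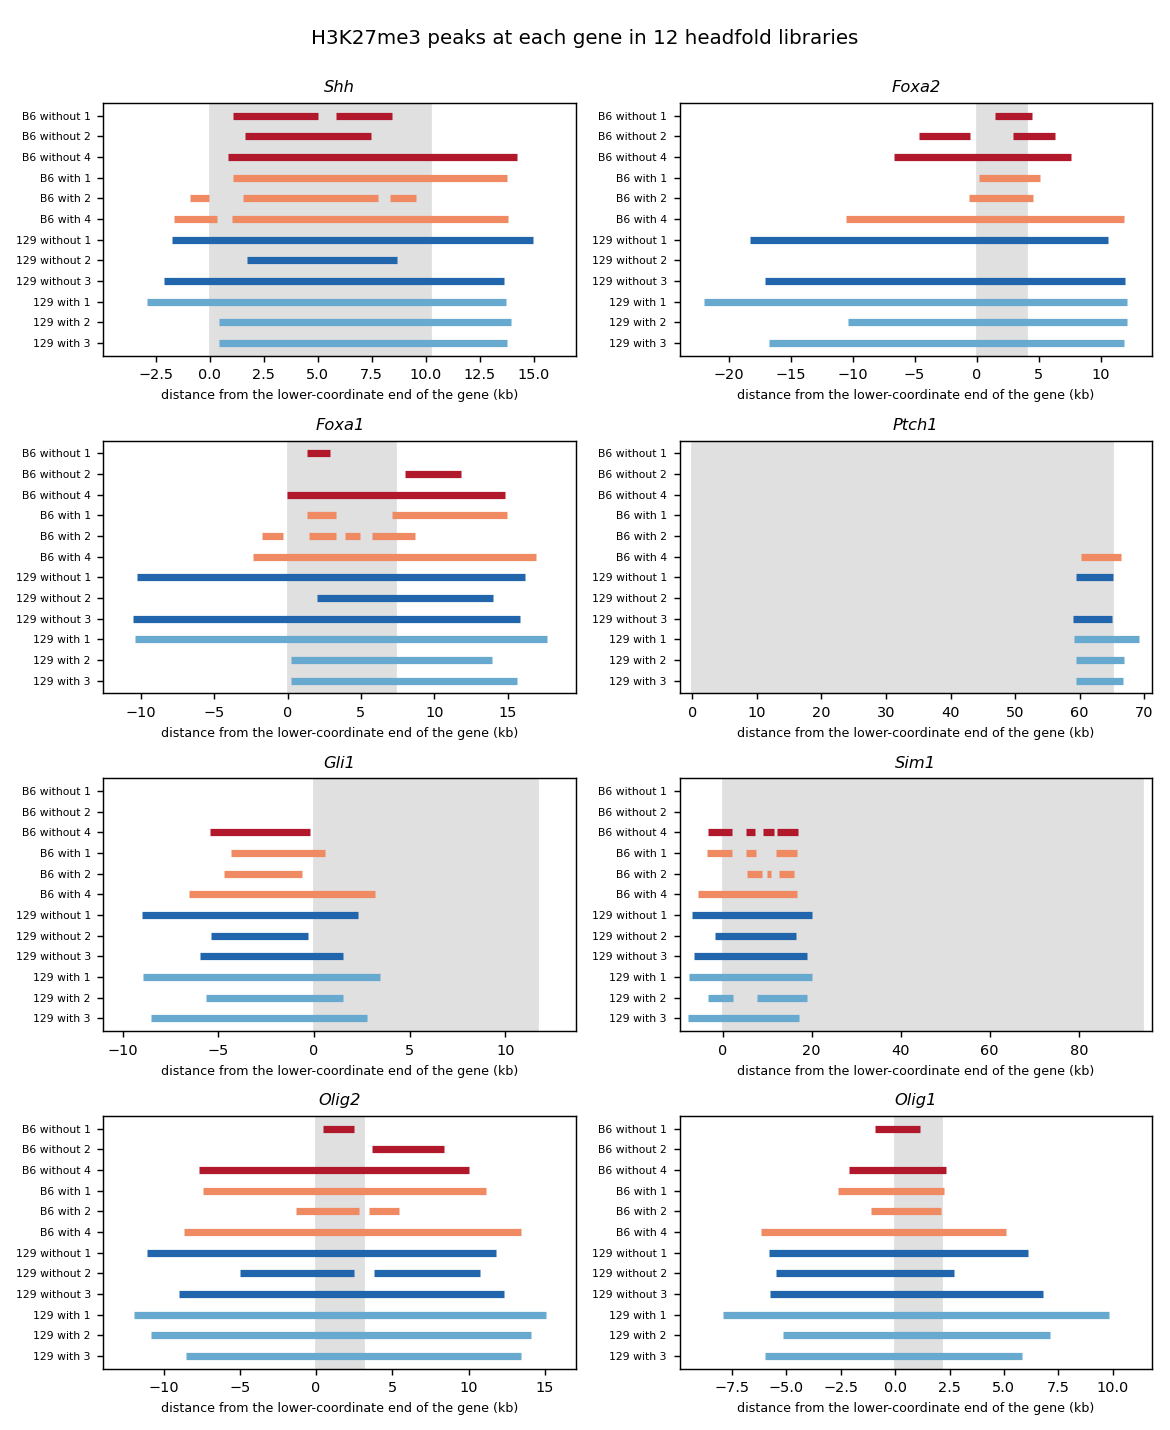
Peaks at each of the 8 genes, drawn as distance in kb from the lower-coordinate end of the gene (grey), with 1 line per library coloured by background and vitamin C. Peaks spanned most of Shh, Foxa2, Foxa1, Olig2 and Olig1 in most libraries, sat at an edge of Ptch1 and Sim1, and reached Gli1 from outside.

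Shh, the ligand, was marked in all 12 libraries. The gene (NCBI gene 20423) lies at chr5:28456840-28467101, and between 47.6% and 100% of its window was covered. In B6, coverage was 53.4%, 47.6% and 84.9% without vitamin C and 83.2%, 68.2% and 94.4% with vitamin C. In 129, it was 100%, 56.6% and 100% without vitamin C and 100%, 88.5% and 88.6% with vitamin C. The low values were those of B6 without vitamin C replicates 1 and 2 and of 129 without vitamin C replicate 2, and the groups overlapped in both backgrounds. In every library the base of highest signal, the summit, of the strongest peak lay inside the gene. A set of 4917 bases, between 1.71 and 7.46 kb from the gene's lower end, was under a peak in all 12 libraries. By total signal, the peaks ranked at a median percentile of 93.1 within their own lists, where 100 is the strongest peak. Peaks that covered Shh also reached the long noncoding gene 9530036O11Rik, whose annotation overlaps Shh, in 8 of 12 libraries.

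Foxa2, the forkhead factor that specifies the floor plate and activates Shh there, was marked in 11 libraries. It lies at chr2:148042877-148046969 (NCBI gene 15376). In B6, 49.4%, 43.3% and 100% of its window was covered without vitamin C and 80.6%, 84.6% and 100% with vitamin C. In 129, coverage was 100%, 0% and 100% without vitamin C and 100% in each of the 3 libraries with vitamin C. The 0 came from 129 without vitamin C replicate 2, the one library with no Foxa2 peak. Foxa2 also had the widest peak among the 8 genes, 34.1 kb in 129 with vitamin C replicate 1, and widths there ranged down to 3.01 kb in B6 without vitamin C replicate 1. The median percentile of signal was 95.9, but B6 without vitamin C replicate 2 stood at 23.1.

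Foxa1, a related forkhead factor that is also present in the floor plate, was marked in all 12 libraries. The gene (NCBI gene 15375) lies at chr12:57540628-57548029. In B6, coverage was 16.6%, 4.58% and 90.1% without vitamin C and 34.7%, 65.0% and 100% with vitamin C. In 129, it was 100%, 68.2% and 100% without vitamin C and 100%, 87.2% and 86.8% with vitamin C. Of the B6 libraries, replicates 1 and 2 of both diets lay below every 129 library, and both replicates 4 lay among the 129 values. In B6 without vitamin C replicate 2 the peak began 7.97 kb from the lower end of the 7.40 kb gene. Without the extension Foxa1 was therefore marked in 11 libraries. The summit was inside Foxa1 in 4 libraries. Peaks also covered part of Ttc6, a protein-coding gene that overlaps Foxa1, in 11 of 12 libraries, so the mark cannot be assigned to Foxa1 alone. In B6 with vitamin C replicate 2, the window held 4 separate peaks, the largest number at Foxa1.

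Ptch1, the receptor of Shh and itself a target of the pathway, was marked least. Over its span (NCBI gene 19206, chr13:63508328-63573460), a peak was called in 0 of 3 B6 libraries without vitamin C, 1 of 3 B6 with vitamin C, 2 of 3 129 without vitamin C and 3 of 3 129 with vitamin C. In B6, coverage was 0% in each library without vitamin C, and 0%, 0% and 8.77% with vitamin C. In 129, it was 8.61%, 0% and 9.01% without vitamin C and 10.5%, 9.94% and 9.93% with vitamin C. The 6 marked libraries placed the peak alike: 4832 bases, between 60.2 and 65.1 kb from the lower end of the 65.1 kb gene, were under a peak in all 6. The gene runs on the minus strand, so this is the end at which its span begins. The nearest edge of the peak lay 1.37 to 2.59 kb from the CpG-rich region printed above, which is inside the gene. The median percentile of signal, 49.1, was the lowest of the 8 genes, and the highest value was 54.1.

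**Figure D2:**
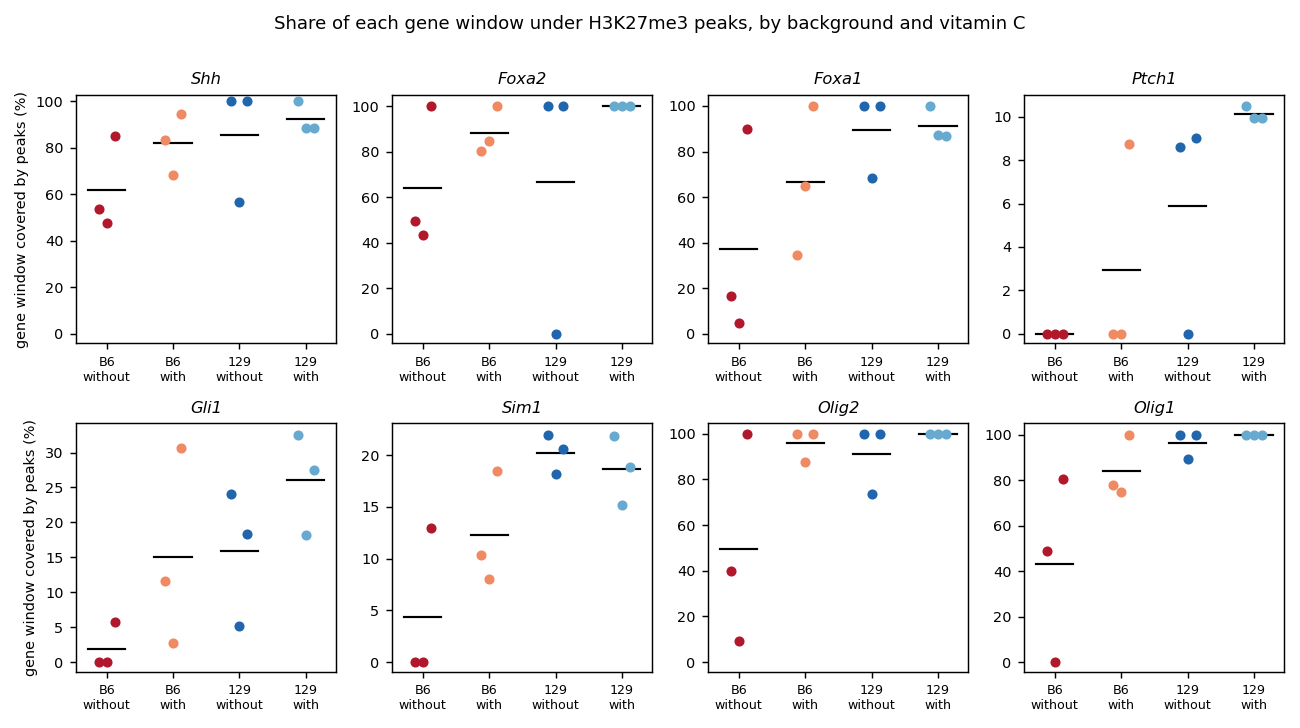
Percent of each gene window covered by H3K27me3 peaks, with 1 point per library, 3 libraries per group and a line at the group mean; the vertical scales differ between genes. For Ptch1, 129 libraries with vitamin C sit between 9.93% and 10.5%, above the 0% to 9.01% of 129 libraries without. Such a separation within 129 held for 3.82% of the 4924 genes, and at Ptch1 it rested on the 1 kb extension.

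Gli1, a transcriptional activator whose own gene is a direct target of the pathway, was marked by the rule in 10 libraries, but mainly by peaks of its neighbour. The gene (NCBI gene 14632) lies at chr10:127329882-127341579 and overlaps Arhgap9 by 66 bases. In B6, 0%, 0% and 5.71% of the Gli1 window was covered without vitamin C and 11.6%, 2.70% and 30.7% with vitamin C. In 129, coverage was 24.1%, 5.17% and 18.3% without vitamin C and 32.5%, 18.3% and 27.5% with vitamin C. A median of 80.3% of each peak's length lay over Arhgap9, and the summit lay over Arhgap9 in 10 of 10 marked libraries. In 7 libraries the peak entered Gli1 from its lower-coordinate end, by 3.46 kb at most. In the other 3 it ended 219 to 631 bases short of that end, so that these libraries counted as marked through the 1 kb extension. No strand was matched for Gli1, so which end holds its start is not given here. Without the extension Gli1 was marked in 7 libraries, and with 5 kb in 11.

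Sim1, a factor of V3 interneurons and of hypothalamic neurons, was marked in 10 libraries. Its position is chr10:50894698-50989156 (NCBI gene 20464). In B6, coverage was 0%, 0% and 13.0% without vitamin C and 10.3%, 8.03% and 18.5% with vitamin C. In 129, it was 22.0%, 18.2% and 20.6% without vitamin C and 21.9%, 15.2% and 18.8% with vitamin C. One B6 library, at 18.5%, lay within the range of the 129 libraries, and the other 5 lay below it. The gene is 94.5 kb long, so a low percentage went with wide peaks, which measured up to 27.7 kb and ranked at a median percentile of 96.9. The peaks covered the beginning of the gene: 3389 bases, 12.6 to 16.0 kb in, were under a peak in all 10 marked libraries. The peaks came in several pieces in 4 libraries, with 4 pieces in B6 without vitamin C replicate 4. In 9 of 10 libraries they also reached the noncoding gene A230054N11Rik, which lies 0.164 kb before Sim1.

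Olig2, which specifies motor neuron and then oligodendrocyte progenitors, was marked in all 12 libraries. The gene (NCBI gene 50913) lies at chr16:91225550-91228677. In B6, coverage was 40.0%, 9.17% and 100% without vitamin C and 100%, 87.8% and 100% with vitamin C. In 129, it was 100%, 73.7% and 100% without vitamin C and 100% in each library with vitamin C. The window was wholly covered in 8 libraries, the most among the 8 genes, and the peaks ranked at a median percentile of 97.1, the highest. In B6 without vitamin C replicate 2 the peak began 3.66 kb from the lower end of the 3.13 kb gene. Without the extension Olig2 was therefore marked in 11 libraries. The noncoding gene Gm52261, which overlaps Olig2, was reached in 11 libraries.

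Olig1, the linked gene that acts in oligodendrocyte formation, was marked in 11 libraries. It lies 41.1 kb from Olig2, at chr16:91269769-91271939 (NCBI gene 50914). In B6, 48.7%, 0% and 80.4% of its window was covered without vitamin C and 78.0%, 74.7% and 100% with vitamin C. In 129, coverage was 100%, 89.2% and 100% without vitamin C and 100% in each library with vitamin C. All B6 libraries except replicate 4 with vitamin C, at 100%, lay below every 129 library. Both Olig genes were marked in 11 libraries, and in none of these did a single peak span both. The gap between their nearest peaks was 21.3 kb at the least, 26.6 kb at the median and 40.8 kb at the most.

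**Figure D3:**
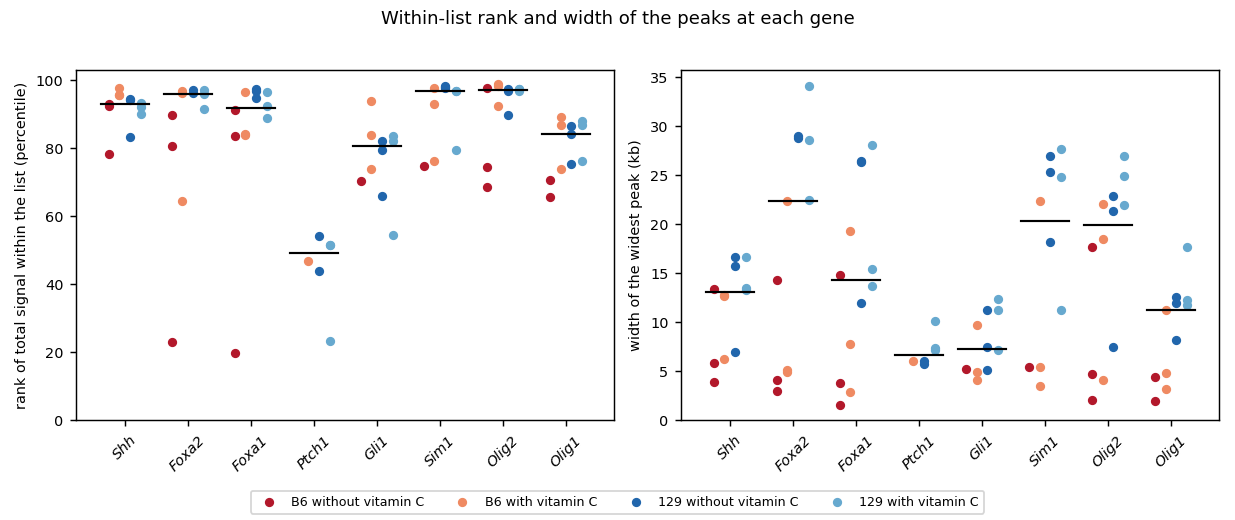
Rank of the strongest peak at each gene by total signal within its own list (percentile, left) and width of the widest peak (kb, right), with 1 point per library that has a peak and a line at the median. Ptch1 peaks rank at a median percentile of 49.1, against 80.8 for Gli1 and 84.2 to 97.1 for the other 6 genes.

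Without vitamin C, mean coverage was lower than with vitamin C at all 8 genes, but no difference passed the test. The difference was -28.8 percentage points at Foxa2 (65.4% ± 41.5 without and 94.2% ± 9.08 with vitamin C, SD, n = 6 each). It was -27.5 points at Olig2 (70.5% ± 38.2 without and 98.0% ± 4.97 with vitamin C) and -22.4 points at Olig1 (69.7% ± 39.1 and 92.1% ± 12.3). The spread among libraries without vitamin C exceeded each of these differences. Foxa1 differed by -15.7 points, Shh by -13.4, Gli1 by -11.7, Ptch1 by -3.58 and Sim1 by -3.16. These compare headfolds of the same genotype by diet, averaged over both backgrounds. The sizes rested on single libraries. Without B6 without vitamin C replicate 4 the differences were widest at 6 genes, with -40.1 points at Olig2, -37.7 at Foxa2, -31.7 at Olig1, -29.0 at Foxa1, -19.1 at Shh and -5.32 at Sim1. They were smallest at -17.4 points at Olig2 and -11.6 at Olig1 when replicate 2 of that group was left out. Without B6 with vitamin C replicate 4, Foxa1 differed by -7.36 points, Gli1 by -7.76 and Sim1 by -1.61. Without 129 without vitamin C replicate 2, Shh differed by -6.15 points, Ptch1 by -2.11 and Foxa2, which has no peak in that library, by -12.1. In lists of equal length by total signal, Foxa1 differed by -1.33 points.

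Diet labels were exchanged within background in all 400 ways, an exact two-sided permutation test whose smallest p is 0.005, and p was adjusted by Benjamini-Hochberg over the 4924 genes covered in at least 2 libraries. Every one of the 8 genes had an adjusted p of 0.812. At an unadjusted p below 0.05 stood 1 of the 8, Gli1 (exact permutation p = 0.04), where 2.07% of all 4924 genes did, and 0 of all genes passed after adjustment. Ptch1 stood at exact permutation p = 0.05. With the embryos of 1 timed pregnancy averaged, 2 of the 8 were below 0.05, Ptch1 (exact permutation p = 0.0125) and Gli1 (exact permutation p = 0.0375), and 133 of all genes, with 0 after adjustment. That setting has only 80 relabellings, so its p moves in larger steps and is not directly comparable with the main test. B6 with vitamin C then counts as 1 pregnancy. Leaving out each of the 12 libraries in turn kept Gli1 below 0.05 in 3 cases, with exact permutation p from 0.02 to 0.11. With no extension of the gene span, the exact permutation p was 0.09 at Gli1 and 0.45 at Ptch1. In lists of equal length, the exact permutation p at Gli1 was 0.225 by total signal and 0.7 by maximum signal. Lower coverage without vitamin C was also the rule elsewhere, with 83.9% of all genes below 0. The members' median difference was -14.5 points, beside -3.53 points over all genes, whose windows are covered to different degrees. The lists without vitamin C covered 3.58 to 15.0 Mb in B6 and 6.97 to 26.2 Mb in 129, against 8.69 to 26.97 Mb and 17.8 to 31.7 Mb with vitamin C, and the part of list size in these differences was not tested.

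Within 129, Ptch1 was the one member for which each library without vitamin C lay below each library with it, as did 3.82% of the 4924 genes. Within B6 this held for none of the 8 and for 3.11% of all genes. The Ptch1 separation rested on the 1 kb extension. In 129, its peaks began 59.4 and 59.0 kb from the gene's lower end without vitamin C and 59.1 to 59.5 kb with it. They ended at 65.2 and 65.1 kb without and at 66.7 to 69.2 kb with vitamin C, while the gene is 65.1 kb long. The differences within B6 were -46.2 points at Olig2, -41.2 at Olig1, -29.5 at Foxa1, -24.2 at Foxa2 and -20.0 at Shh. In 129 the same genes differed by -8.78, -3.61, -1.92, -33.3 and -6.79 points. Gli1 differed by -13.1 points in B6 and -10.2 in 129, and Ptch1 by -2.92 and -4.24. Sim1 went opposite ways, with -7.95 points in B6 and 1.63 in 129. The diet difference in B6 minus that in 129 was -37.6 points at Olig1 and -37.4 at Olig2, and 9.16 at Foxa2. None of the 8 genes passed the exact permutation test of this difference even unadjusted, with p from 0.155 to 0.9, beside 0.102% of all genes. The lowest was at Sim1, where the unadjusted p fell below 0.05 in 2 of 23 alternatives and none passed after adjustment.

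Presence of a peak gave no called difference by diet. Ptch1 was marked in 2 of 6 libraries without and 4 of 6 with vitamin C, and Gli1 and Sim1 each in 4 of 6 without and 6 of 6 with. Foxa2 and Olig1 were each marked in 5 of 6 without and 6 of 6 with, and Shh, Foxa1 and Olig2 in 6 of 6 of both. The exact permutation p lay between 0.4 and 1 for the 8 genes, with 0 of them below 0.05, beside 0.0203% of all genes.

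**Figure D4:**
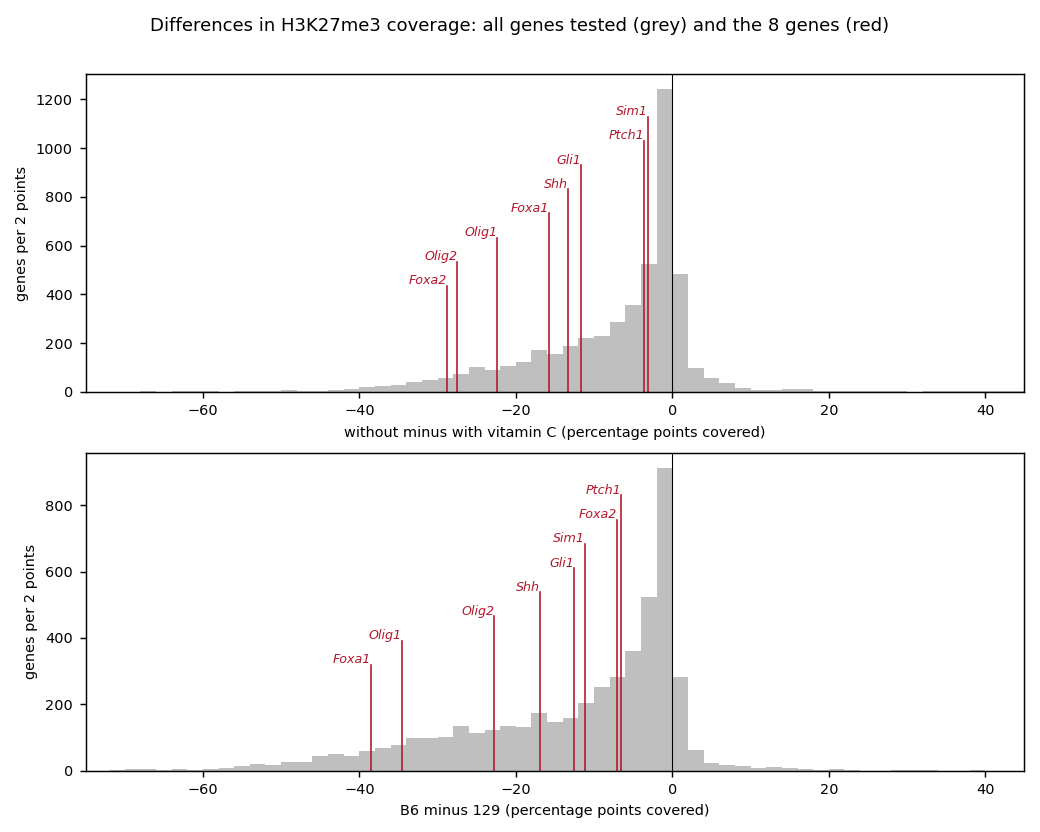
Difference in percent of the gene window covered, in percentage points, for the 4924 genes tested (grey histogram) and the 8 genes (red lines at their own values), without minus with vitamin C above and B6 minus 129 below. All 8 genes lie below 0 in both comparisons, as do 83.9% and 89.8% of all genes.

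Mean coverage was lower in B6 than in 129 at all 8 genes with all 12 libraries in the comparison, again without a difference that passed after adjustment. At Foxa2 the direction depended on single libraries. The difference was -38.5 points at Foxa1 (51.8% ± 39.3 in B6 and 90.3% ± 12.6 in 129, SD, n = 6 each) and -34.6 points at Olig1 (63.6% ± 35.2 in B6 and 98.2% ± 4.42 in 129). Sim1 had 8.30% ± 7.31 in B6 and 19.4% ± 2.60 in 129, a difference of -11.1 points. Ptch1 had 1.46% ± 3.58 in B6 and 7.99% ± 3.98 in 129, a difference of -6.53 points. The groups overlapped at every gene. Olig2 differed by -22.8 points, Shh by -17.0, Gli1 by -12.5 and Foxa2 by -7.02. The Foxa2 difference was 1.31 points without 129 without vitamin C replicate 1 or 3, and -23.7 points without replicate 2 of that group. At Olig2 the difference was -12.6 points without B6 without vitamin C replicate 2 and -35.3 points without replicate 4 of that group. The Foxa2 difference was also positive with peaks under 5 kb apart joined (8.23 points) and in a 1 kb promoter window (7.15 points).

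In the exact permutation test within diet, 4 of the 8 genes had an unadjusted p below 0.05: Sim1 (p = 0.01), Ptch1 (p = 0.02), Olig1 (p = 0.02) and Gli1 (p = 0.04). Of all genes, 16.8% did so, and none of the 4924 passed after adjustment. The adjusted p of the members ran from 0.241 to 0.847. The 3 B6 embryos with vitamin C are littermates, and with the embryos of 1 timed pregnancy averaged 533 of all genes were below 0.05, against 827 when each embryo counted. In that setting, with 80 relabellings, the exact permutation p was 0.0125 at Olig1, 0.025 at Sim1 and 0.0375 at Foxa1. For Ptch1 and Gli1 the exact permutation p was 0.05 each. Sim1, Ptch1 and Olig1 stayed below 0.05 when any 1 of the 12 libraries was left out, and Gli1 in 3 of 12 cases. Other settings moved all 4 genes. Over the alternatives that could be tested, Sim1 was below 0.05 in 22 of 24 (highest exact permutation p = 0.2). Ptch1 was below it in 18 of 20 (highest exact permutation p = 0.07), Olig1 in 20 of 23 and Gli1 in 7 of 23. With no extension of the gene span, the exact permutation p was 0.2 at Olig1 (-25.1 points) and 0.09 at Gli1. It was 0.01 at Sim1 and 0.02 at Ptch1. In lists of equal length, the exact permutation p at Olig1 was 0.02 by total signal and 0.74 by maximum signal (-6.92 points). Lower coverage in B6 was found for 89.8% of all genes, whose median difference was -7.23 points, beside -14.7 points over the 8. B6 peaks were shorter across the whole lists, as given above, and the part of peak width was not tested. The library codes in the labels form 1 run for 129 and a later run for B6, so library run and background cannot be told apart.

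The form of the domains was described over the 48 pairs of a member gene and a library in each background, with no test. More than 1 peak lay in the window in 10 pairs (20.8%) in B6 and 2 (4.17%) in 129, beside 9.07% and 4.92% of pairs over all 4924 genes. Of the 10, 4 came from B6 with vitamin C replicate 2, a library of short peaks, and 6 of 40 pairs remained without it. A window was wholly covered in 7 pairs (14.6%) in B6 and 21 (43.8%) in 129, beside 5.29% and 13.2% of pairs over all genes. Pairs with no peak count in all these shares, so being marked and the form of the domain are mixed in them. The members had a peak in 38 of 48 pairs in B6 and 46 of 48 in 129, whereas a gene needed coverage in only 2 libraries to be included. Without B6 with vitamin C replicate 4, 3 of 40 B6 pairs were wholly covered. By presence, Ptch1 was marked in 1 of 6 B6 and 5 of 6 129 libraries (exact permutation p = 0.08). A pattern of at most 1 of 6 in B6 and at least 5 of 6 in 129 was shared by 1.79% of the 4924 genes. None of the 8 genes had an unadjusted p below 0.05 for presence, beside 0.731% of all genes. Foxa2 was the one gene marked more often in B6, in 6 of 6 libraries against 5 of 6 in 129.

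Other genes of the pathway were counted by role, as a description. Among 7 further genes of Hedgehog ligands and their release, the ligand genes Ihh and Dhh were marked in all 12 libraries, and a median of 89.3% of the Ihh window and 42.2% of the Dhh window was covered. Scube3, Scube2 and Scube1, which help to release the ligand, were marked in 9, 8 and 5 libraries, Hhat, the palmitoylating enzyme, in 1 and Disp1, the exporter, in none. No library had a peak at any of 6 further receptor genes (Smo, Cdon, Boc, Gas1, Hhip and Lrp2). Of 16 further transducers, Kif7 was marked in 1 library and the other 15, with Gli2, Gli3 and Sufu among them, in none. Marking in at least 1 library held for 20.2% of protein-coding genes, so a gene with no peak is the common case. Over all roles, 22 of the 29 further Hedgehog genes had none, and a difference between roles was not tested. Of the 5 Hedgehog genes that could be tested, coverage was lower without vitamin C at 4 and higher at 1, and lower in B6 at 5. Of all genes, 83.9% and 89.8% were lower in these comparisons. By the exact permutation test none of the 5 was called after adjustment. Unadjusted, 1 of the 5 was below 0.05 between backgrounds, beside 16.8% of all genes. It was Ihh (-25.5 points, exact permutation p = 0.005, adjusted p 0.228).

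**Figure D5:**
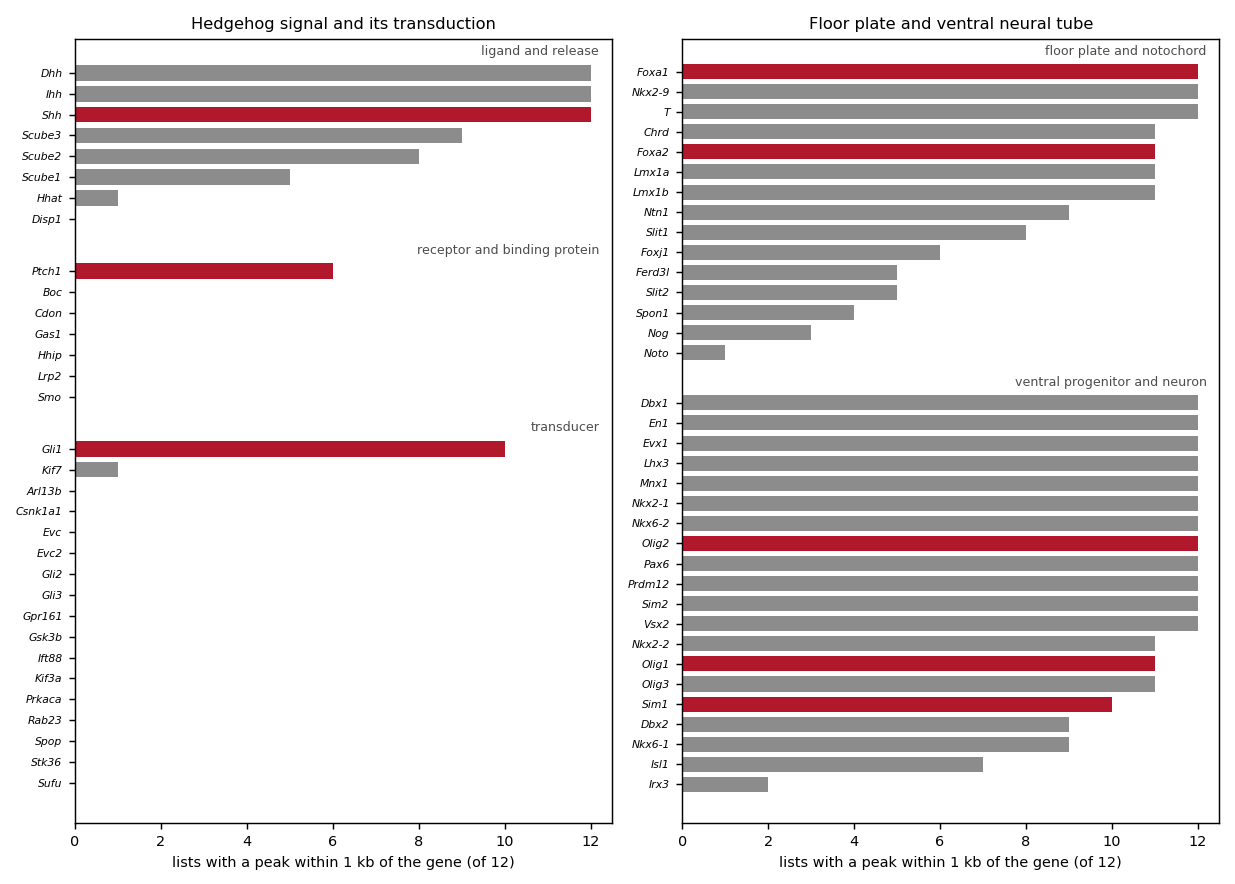
Number of the 12 libraries with a peak in the gene window, for genes of Hedgehog signalling (left) and of the floor plate and ventral neural tube (right), with the 8 genes of the report in red and others in grey. Receptors and transducers other than Ptch1 and Gli1 have at most 1 marked library, and each floor plate and ventral gene has at least 1. Of all protein-coding genes, 20.2% have at least 1.

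Genes of the floor plate, notochord and ventral neural tube were marked more often. All 30 further genes of this kind had a peak in at least 1 library, and 18 had one in at least 10. Of 13 floor plate and notochord genes, 5 reached 10 libraries, among them Lmx1b (11) and Nkx2-9 (12), a homeobox gene of cells next to the floor plate. Brachyury (T), the notochord factor, was marked in 12. Ntn1, the guidance cue of commissural axons, was marked in 9 libraries, Foxj1, a regulator of motile cilia, in 6 and Noto in 1. Of 17 progenitor and neuron genes, 13 reached 10 libraries. Nkx2-2, which marks V3 progenitors, was marked in 11 libraries, Mnx1, a motor neuron factor, in 12, and Olig3 in 11, while Isl1 was marked in 7 and Irx3 in 2. Of 29 tested, 26 had lower coverage without vitamin C (median -8.75 points over the 29) and all 29 lower coverage in B6 (median -18.5 points). Of all genes, 83.9% and 89.8% were lower in these comparisons. None of the 29 passed adjustment, and 7 had an unadjusted exact permutation p below 0.05 between backgrounds, all lower in B6, beside 16.7% of all genes.

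Coverage over the 12 libraries was compared between each member and the protein-coding genes on other chromosomes, as a description with no test. The genes nearest by mean absolute difference are given. Ptch1 was nearest to Frrs1l (0.946 points) and Slc6a16 (1.12 points), Sim1 to Tcea3 (2.02 points) and Gli1 to Cdh22 (2.58 points). Olig2 was nearest to Helt (1.82 points), Olig1 to Adrb1 (3.46 points), Foxa2 to Hoxc12 (3.72 points), Shh to Psmb8 (5.57 points) and Foxa1 to Neurog2 (7.50 points). Within the 8 genes, Gli1 and Sim1 were closest (5.50 points), followed by Olig1 and Olig2 (7.33 points), while Foxa1 and Foxa2 differed by 20.1 points. These values share the libraries and their list lengths, and genes with low coverage lie close together on this scale.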

How the data were processed

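CUT&Tag for H3K27me3 was done on E8.5 headfolds, and the peak lists of 12 of 18 samples were used; 4 IgG and 2 further B6 H3K27me3 samples are not analysed here. Reads were processed with cutadapt, Bowtie2, Picard and SEACR on mm10, per the submitters' processing notes. Their versions and settings, and how IgG was used, were not given in the sources used here. A deposited list has 1 library's peaks in 6 columns, with total and maximum signal per peak as the authors wrote them, and these signal values only ranked or filtered peaks within a list. Depth is unknown, so no interval was given for its effect.

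Gene spans came from RefSeq GRCm38.p6, which gives no strand; coordinates are 1-based. For each gene and list, presence, width and percent covered were computed with Python 3.11.15, NumPy 2.4.6, pandas 2.3.3 and SciPy 1.17.1, and figures with Matplotlib 3.10.9. Differences are means of the within-stratum differences. They were tested by exact permutation within background or within diet over 4924 genes, with Benjamini-Hochberg adjustment at 0.05; within 1 background, 3 against 3 cannot go below 0.1. Scripts were tested on simulated data.

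The 8 genes, the gene lists (Hedgehog, floor plate and ventral, headfold markers and markers of other tissues) and the tests were chosen with earlier results of these data known. Some genes of these lists are not reported here. Named genes are the 8, examples from each list and the adjoining genes the peaks reach. For each member, the gene of nearest coverage among protein-coding genes on other chromosomes is also named. Separate embryos were the replicates, littermates in B6 with vitamin C included. Alternatives changed the window, the peaks kept, the joining of peaks, the pregnancy average, the permutation and the libraries.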

Additional observations from a re-analysis of the deposited data

How the results depend on the processing

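No gene passed adjustment in the comparisons run under each alternative. The difference of the diet differences was not run with labels permuted over all 12 libraries. Ptch1 was covered in too few lists to be tested in both settings of equal lists, with peaks at or above the median maximum and in the promoter window. The lowest adjusted p of a member by exact permutation over all alternatives was 0.456 for diet and 0.128 for background, both for coverage. At an unadjusted p below 0.05, leaving out 1 library moved the count of all genes between 35 and 286 for diet (102 with all) and between 456 and 1593 for background (827 with all). The lowest diet count came without B6 without vitamin C replicate 1 and the highest without B6 without vitamin C replicate 4. Without both libraries of short peaks, a choice made after seeing the data, the background count was 247. That setting has 100 relabellings for background, and leaving out 1 library has 200, against 400 with all libraries. These counts are therefore not directly comparable with those of the main test. Depth is unknown and can set list length.

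Directions turned in 28 of the values for single genes, and the cause was not tested. With every list cut to its 748 strongest peaks by maximum signal, the diet difference was 7.21 points at Foxa2 and 0.400 at Olig1. Presence by diet then differed by 0.167 at both Foxa2 and Gli1 (share of libraries, without minus with vitamin C). Foxa2 presence in B6 minus 129 was -0.167 in that setting and -0.333 with peaks at or above the median maximum. Its coverage difference between backgrounds was 8.23 points with peaks under 5 kb apart joined and 7.15 in the 1 kb promoter window. Leaving out 1 library gave -23.7 to 1.31, positive without 129 without vitamin C replicate 1 or 3. For the diet difference in B6 minus that in 129, no extension gave -1.24 at Foxa2 and 0.333 at Gli1. Equal lists by total signal gave 1.18 at Foxa1, and by maximum signal 7.78 at Gli1, 1.04 at Olig2 and 0.799 at Olig1. Peaks at or above the median maximum gave 2.21 at Shh, -55.1 at Foxa2 and 2.74 at Gli1. Leaving out 1 library gave -24.2 to 25.8 at Foxa2, -1.62 to 4.24 at Ptch1 and -9.03 to 4.97 at Gli1, and leaving out both libraries of short peaks gave -0.140 at Ptch1.

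In equal lists by total signal, Ptch1 was marked in 0 libraries and the others in 9 to 12. By maximum signal Shh was marked in 7, Foxa2 in 3, Gli1 in 5 and Olig1 in 4. The promoter window gave no value for Shh, Gli1 and Olig1. No paired analysis was possible because the labels give no replicate numbers shared between the groups.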
